A study of Gallus gallus with 10 samples.

Results

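Krüppel-like factors are transcription factors with zinc fingers at the C-terminal end that bind GC-rich DNA and CACCC boxes, a binding preference they share with the SP factors. What is known of their roles comes largely from mouse and human cells. KLF2 and KLF4 are raised by blood flow in endothelial cells, KLF6 is an early responder to injury, KLF10 and KLF11 are induced by TGF-beta and repress through SIN3A, and KLF9 and KLF15 respond to glucocorticoids. KLF3, KLF8 and KLF12 act mainly as repressors through CtBP proteins. The genes described here were chosen by name: KLF2, KLF3, KLF4, KLF5, KLF6, KLF7, KLF9, KLF10, KLF11 and KLF15. Of these 10 names 9 were matched, each to 1 row, in a table of 24355 chicken genes, and KLF4 was not analysed here.

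The choroid is the vascular, pigmented layer behind the retina. RNA of choroids from normal chick eyes at day 15 after hatching (strain given as Domesticus) was poly(A)-selected and sequenced, in 5 libraries with PAPA-NONOate, a small molecule that releases nitric oxide, and 5 control libraries without it. The incubation lasted 24 hours, at 37 °C in 5% CO2 with the donor at 1.5 mM, and the labels give the same text, donor included, for the controls. The study asks how nitric oxide affects choroidal gene expression. The titles do not say that replicates are separate birds, so the p-values cover only the scatter among these libraries, which may be technical. The titles also carry the letter R for every treated and L for every control choroid, so whatever the letters mark cannot be told apart from the treatment.

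Levels are FPKM, fragment counts scaled to transcript length and sequencing depth, as deposited. Differences are log2 fold changes on the log2(FPKM + 0.5) scale, a scale that shrinks the differences of low genes, and were tested with limma over 11357 genes at an adjusted p of 0.05. Absolute depth is unknown, and steps between low values put relative depth at 0.660 to 1 of that of control replicate 2. That estimate is rough, and in PAPA-NONOate replicate 2 it rests on 68 of 509 low genes. Genes at 1 FPKM or more numbered 10973 to 11184 in the PAPA-NONOate libraries and 11318 to 11514 in the control libraries, without overlap. The cause of this difference was not tested. Summed FPKM was lowest in PAPA-NONOate replicate 2 (394921) and ran from 470676 to 605493 in the other libraries. The median log2 fold change of all genes was -0.18, and median-ratio scaling of the libraries moves it to 0.00. The endothelial genes CDH5 and PECAM1 averaged 199.9 ± 44.9 and 93.5 ± 25.4 FPKM with PAPA-NONOate, and 246.9 ± 30.6 and 89.1 ± 14.0 FPKM in controls (SD, n = 5 each).

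KLF6 was the member that rose. Of the 9 genes, 1 passed the test, 0 fell and 8 did not pass. That is 11.1% of the members, against 9.34% of all genes tested (1061 of 11357), or 1.93% upward and 7.41% downward, so as a share of the list the calls are near the background. KLF6 was also the only one of the 9 whose groups did not overlap, which was so for 9.32% of all genes tested, 1.84% higher and 7.48% lower. The median log2 fold change of the 9 members was -0.08, beside -0.18 for all genes. Relative to zero 3 members lay above and 6 below as deposited, and after median-ratio scaling 5 lay above and 4 below.

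KLF6 (ENSGALG00000033178), known in mammals as an early gene of tissue injury, was at 107, 71.9, 109, 85.6 and 95.1 FPKM in PAPA-NONOate replicates 2, 3, 4, 5 and 8, against 66.2, 53.6, 68.2, 51.8 and 58.4 FPKM in the control replicates of those numbers. Every treated library lay above the highest control, with treated replicate 3 nearest to it. The means were 93.7 ± 15.5 FPKM with PAPA-NONOate and 59.6 ± 7.34 FPKM in controls (SD, n = 5 each). The log2 fold change was 0.64 (SE 0.14, 95% interval 0.34 to 0.94, adjusted p = 0.0147 in limma). It lay above that of 97.3% of all genes tested. The call held in all 22 other settings, with log2 fold changes of 0.54 to 0.91 and adjusted p-values up to 0.0410. Without PAPA-NONOate replicate 2, the library with the lowest sum, the log2 fold change was 0.59.

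**Figure D1:**
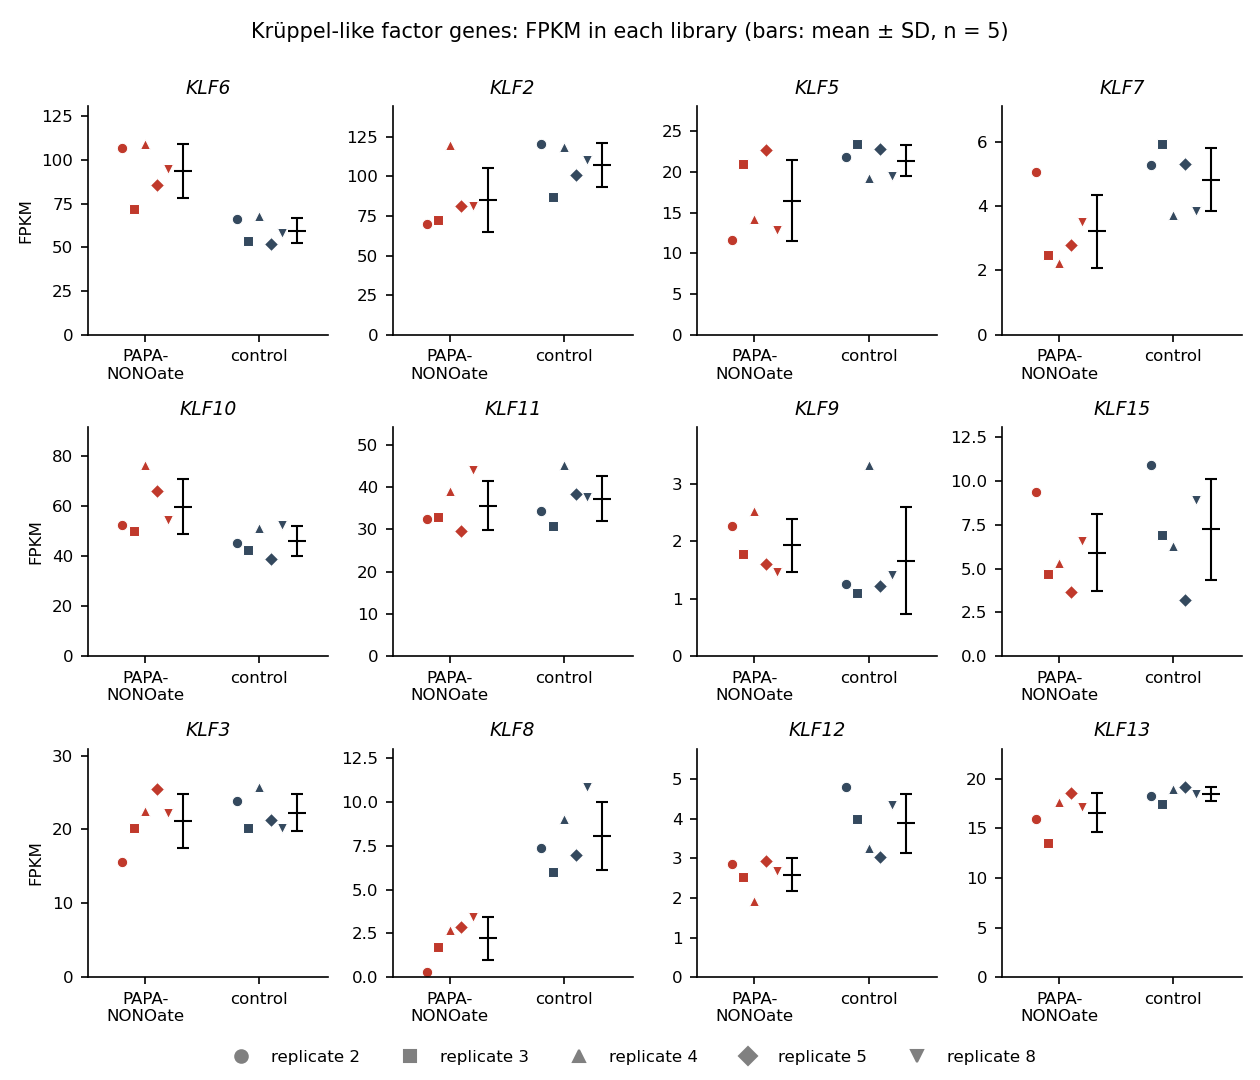
FPKM (vertical axes, linear from 0) of 12 Krüppel-like factor genes in the 5 PAPA-NONOate libraries (left, red) and the 5 control libraries (right, dark blue), with a marker shape per replicate number and bars for the mean ± SD. KLF6 lay above the controls in all 5 treated libraries, KLF8 and KLF12 lay below them in all 5, and the other 9 genes overlapped between the groups. Over all genes tested, the groups did not overlap in 9.32%, with 1.84% higher and 7.48% lower.

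KLF2, the flow-induced factor of endothelium, had the highest mean level in controls among the 9 matched members. It was at 69.8, 72.7, 119.8, 81.4 and 81.1 FPKM in PAPA-NONOate replicates 2, 3, 4, 5 and 8, against 120.3, 87.1, 118.7, 100.6 and 110.2 FPKM in the control replicates of those numbers. Of the treated libraries 4 lay below every control, and replicate 4 lay at the level of the highest controls. The log2 fold change was -0.35 (SE 0.16, 95% interval -0.69 to -0.01), which did not pass (unadjusted p = 0.0428, adjusted p = 0.162 in limma). After median-ratio scaling, which puts the median gene at 0.00, it was -0.17, and without PAPA-NONOate replicate 4 it was -0.48 (adjusted p = 0.0538).

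Set against each other within a library, KLF6 and KLF2 differed in order between the groups. With PAPA-NONOate KLF6 had the higher mean and stood above KLF2 in 3 of 5 libraries. In controls the ranges of the genes did not overlap, with KLF2 above KLF6 in all 5 libraries. The ratio of KLF6 to KLF2 was 1.53, 0.989, 0.910, 1.05 and 1.17 in PAPA-NONOate replicates 2, 3, 4, 5 and 8, against 0.550, 0.616, 0.575, 0.515 and 0.530 in the control replicates of those numbers. Multiplying a library by a factor leaves such a ratio as it is, and the groups did not overlap. The ratio was chosen after its values were seen and is given without a test.

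The summed FPKM of the 9 genes was similar between the groups, at 322.7 ± 41.9 with PAPA-NONOate and 307.6 ± 29.7 in controls (SD, n = 5 each), with overlapping ranges. KLF6 made up 25.9 to 35.0% of that sum with PAPA-NONOate, against 18.3 to 20.1% in controls. KLF2 made up 22.8 to 30.6% with PAPA-NONOate, against 32.1 to 36.6% in controls. KLF10 made up 16.9 to 20.6% with PAPA-NONOate, against 13.6 to 16.8% in controls. For these 3 genes the groups did not overlap, KLF10 by a narrow margin, and for the other members they overlapped. In FPKM itself only KLF6 did not overlap. The shares come from the same values and are given without a test, and no such share was computed for other genes. A larger share of one gene lowers the shares of the others, so these are not independent.

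**Figure D2:**
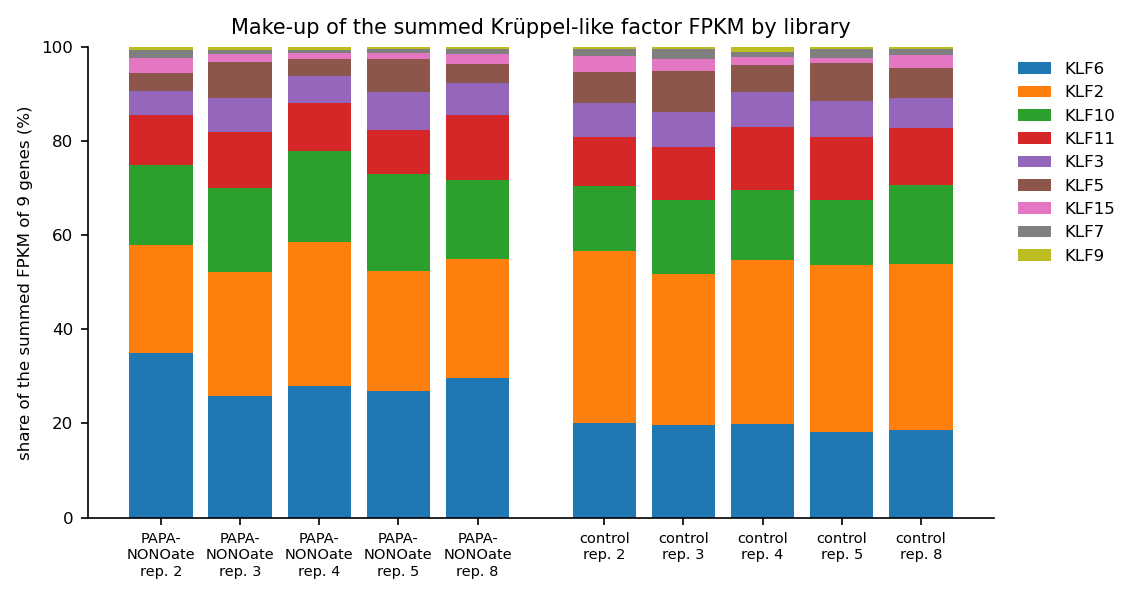
Share (%) of the summed FPKM of the 9 Krüppel-like factor genes taken by each gene, as a stacked bar per library, with the 5 PAPA-NONOate libraries on the left and the 5 control libraries on the right. The KLF6 segment takes 25.9 to 35.0% in treated and 18.3 to 20.1% in control libraries.

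KLF10 was higher in most treated libraries, and whether it passed depended on the scaling. KLF10 (ENSGALG00000037913), the TGF-beta inducible early gene, was at 52.4, 49.8, 76.1, 65.8 and 54.4 FPKM in PAPA-NONOate replicates 2, 3, 4, 5 and 8, against 45.1, 42.4, 51.1, 38.6 and 52.4 FPKM in the control replicates of those numbers. Of the treated libraries 4 lay above every control, replicate 2 by a margin too small to show at this rounding. On the log2 scale the difference was 0.37 (SE 0.14, 95% interval 0.06 to 0.67), which did not pass (adjusted p = 0.119 in limma). With median-ratio scaling it was 0.55 and passed (adjusted p = 0.00996), and with quantile normalization it was 0.47 and passed (adjusted p = 0.0179). After these scalings 2 of 9 members passed, both higher, where 13.5% and 12.4% of all genes did, with 7.03% and 6.45% upward and 6.44% and 5.99% downward.

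KLF11, the close relative of KLF10 that shares its repression domain, had a level of 29.7 to 44.0 FPKM with PAPA-NONOate and 30.8 to 45.2 FPKM in controls. Its log2 fold change of -0.07 (95% interval -0.37 to 0.24) did not pass, and its sign turned with the scaling (0.12 after median-ratio scaling). The ratio of KLF10 to KLF11 was 1.23 to 2.21 with PAPA-NONOate and 1.0 to 1.39 in controls, with an overlap, so a separate course of the pair is not shown.

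KLF5 and KLF7 lay lower in most treated libraries without passing. KLF5, which in mouse promotes smooth muscle growth and vessel remodelling, was at 11.6, 21.0, 14.2, 22.7 and 12.9 FPKM in PAPA-NONOate replicates 2, 3, 4, 5 and 8, against 21.8, 23.4, 19.3, 22.9 and 19.5 FPKM in the control replicates of those numbers. Replicates 2, 4 and 8 lay below every control and replicates 3 and 5 lay among them, so the treated libraries spread over a wider range. The log2 fold change of KLF5 was -0.41 (SE 0.18, adjusted p = 0.155 in limma), and it passed only without PAPA-NONOate replicate 5 (-0.54, adjusted p = 0.0463). In that fit 1580 of 11357 genes were lower, and the median log2 fold change of all genes was -0.23. In smooth muscle and pericyte markers, 1 of 9 tested rose and 2 fell, where 1.93% of all genes rose and 7.41% fell. The marker that rose, CNN1, was at 1.53 to 5.82 FPKM with PAPA-NONOate and 0.448 to 0.787 FPKM in controls. It met the filter of 1 FPKM in 5 libraries only through the treated group, which favours a higher call. The summed level of the smooth muscle and pericyte markers, 98.7 to 237.8 FPKM with PAPA-NONOate, overlapped that of 180.6 to 269.5 FPKM in controls.

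KLF7, which in mouse acts in neurons and axon growth, was at 5.05, 2.49, 2.24, 2.80 and 3.50 FPKM in PAPA-NONOate replicates 2, 3, 4, 5 and 8, against 5.28, 5.92, 3.73, 5.32 and 3.86 FPKM in the control replicates of those numbers. Of the treated libraries 4 lay below every control and replicate 2 lay among them. On the log2 scale KLF7 differed by -0.55 (SE 0.21, 95% interval -0.99 to -0.10, adjusted p = 0.111 in limma). It passed without PAPA-NONOate replicate 2 (-0.70, adjusted p = 0.0330) and with library weights (-0.71, adjusted p = 0.0177 in limma). In each of these fits it was 1 of 9 members lower. Of all 11357 genes tested, 633 were lower in the first fit and 1424 in the second.

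Of the glucocorticoid-responsive members, KLF9 and KLF15, neither passed. KLF9 was at 1.46 to 2.54 FPKM with PAPA-NONOate and at 1.10 to 3.32 FPKM in controls, where replicate 4 stood apart at 3.32 and the other 4 lay between 1.10 and 1.42. Its log2 fold change was 0.23 (95% interval -0.31 to 0.78, adjusted p = 0.570 in limma). KLF15, known for control of amino acid and lipid metabolism, was at 9.37, 4.68, 5.30, 3.68 and 6.56 FPKM in PAPA-NONOate replicates 2, 3, 4, 5 and 8, against 10.9, 6.91, 6.29, 3.20 and 8.90 FPKM in the control replicates of those numbers. The groups overlapped over most of their range, and in both groups replicate 2 was highest and replicate 5 lowest. Its log2 fold change was -0.24 (95% interval -0.87 to 0.40, adjusted p = 0.622 in limma). KLF3, a repressor with CtBP, was at 15.6 to 25.5 FPKM with PAPA-NONOate and 20.2 to 25.8 FPKM in controls, and its log2 fold change of -0.08 turned to 0.10 after median-ratio scaling.

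**Figure D3:**
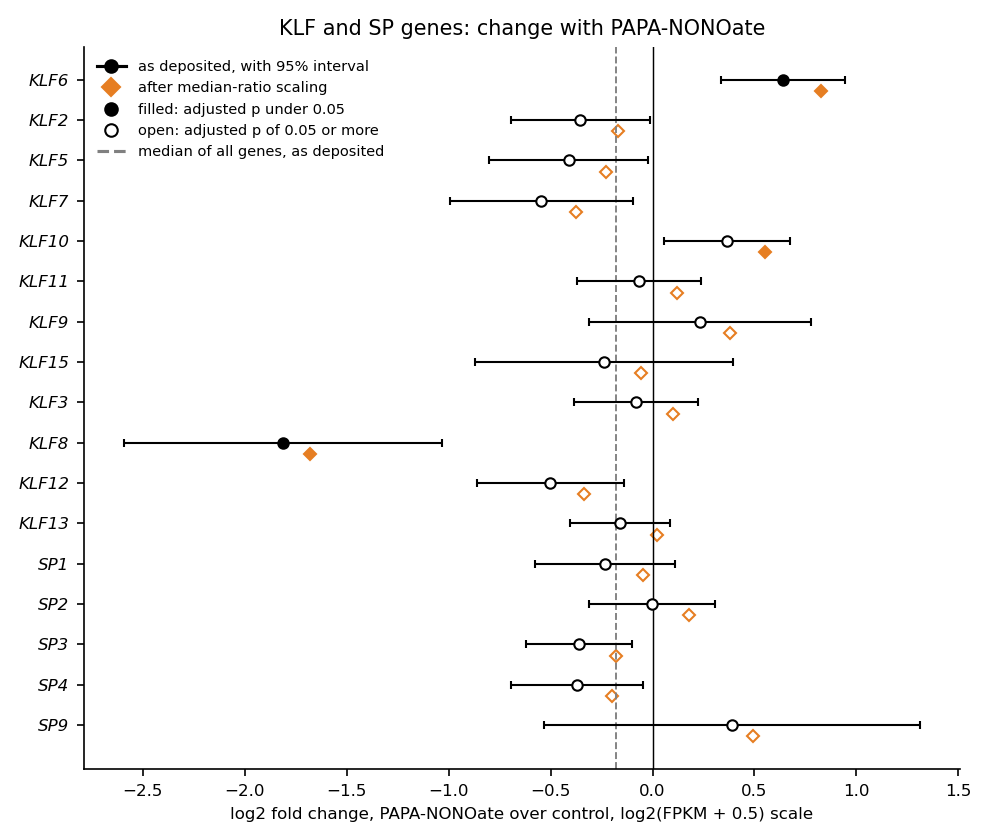
Log2 fold change (horizontal axis, PAPA-NONOate over control) of 12 KLF and 5 SP genes, as deposited with 95% intervals (circles) and after median-ratio scaling (diamonds); filled symbols passed an adjusted p of 0.05 and the dashed line is the median of all genes as deposited, at -0.18. KLF6 (0.64) and KLF8 (-1.81) passed both ways, and KLF10 passed after scaling.

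In both groups the members kept nearly the same order of level. The order with PAPA-NONOate was KLF6, KLF2, KLF10, KLF11, KLF3, KLF5, KLF15, KLF7 and KLF9, and in controls only KLF2 and KLF6 stood the other way round. With PAPA-NONOate, ranges of neighbours did not overlap between KLF10 and KLF11, between KLF11 and KLF3 and between KLF5 and KLF15. In controls they did not overlap between KLF2 and KLF6, KLF11 and KLF3, KLF5 and KLF15, or KLF7 and KLF9. KLF2, with a mean over both groups above that of 93.8% of all genes tested, and KLF6, above 91.8%, were strongly expressed in this tissue, while KLF9 lay above 9.46%.

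Among family genes outside the chosen names, KLF8 had the largest difference. Of 8 other KLF names 3 were matched, KLF8, KLF12 and KLF13. Among these 0 rose, 1 fell and 2 did not pass, while 7.41% of all genes tested fell. KLF8 (ENSGALG00000037361), known in human cells as a CtBP-dependent repressor tied to cell growth, was at 0.318, 1.72, 2.71, 2.89 and 3.44 FPKM in PAPA-NONOate replicates 2, 3, 4, 5 and 8, against 7.39, 6.0, 9.03, 7.0 and 10.9 FPKM in the control replicates of those numbers. The highest treated library lay below the lowest control, and replicate 2 was lowest by far. The log2 fold change was -1.81 (SE 0.36, adjusted p = 0.00882 in limma), or -1.43 without PAPA-NONOate replicate 2, and the call held in all 22 other settings. KLF12, a related repressor, was at 1.92 to 2.94 FPKM with PAPA-NONOate and 3.02 to 4.81 FPKM in controls without overlap, but its log2 fold change of -0.50 did not pass (adjusted p = 0.0755). It passed with library weights (adjusted p = 0.0327 in limma). Of all genes tested, 7.48% lay lower without overlap. KLF12 and KLF5 are neighbours in the RefSeq gene order (assembly GRCg7b), and neither passed as deposited. Both had negative log2 fold changes, in a comparison where the median of all genes was itself -0.18. A link between the 2 genes was not tested. KLF13 was at 16.6 ± 1.96 FPKM with PAPA-NONOate and 18.5 ± 0.679 FPKM in controls (SD, n = 5 each), a log2 fold change of -0.16 that did not pass.

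The SP genes, which bind the same GC-rich elements, did not pass as deposited. Of 9 names all were matched and 5 were tested, and their median log2 fold change was -0.23, beside -0.18 for all genes. With 5 genes, 0 calls lie near the 9.34% of all genes that passed. SP1, the ubiquitous member, was at 30.8 to 58.0 FPKM with PAPA-NONOate and 48.8 to 61.3 FPKM in controls, with a log2 fold change of -0.23. SP3 was at 20.9 to 28.2 FPKM with PAPA-NONOate and 27.2 to 34.6 FPKM in controls, and differed by -0.36 on the log2 scale (adjusted p = 0.0762). SP3 passed with library weights or when treated replicate 5 was left out. The log2 fold changes of SP2, SP4 and SP9 were 0.00, -0.37 and 0.39. SP5, SP6, SP7 and SP8 were below the filter, with means of 0.206, 0.0291, 0.474 and 1.15 FPKM with PAPA-NONOate and 0.208, 0.0456, 0.493 and 0.593 FPKM in controls.

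Among genes upstream of the flow-induced factors, those tested did not pass. The kinase ERK5 and the MEF2 factors drive KLF2 and KLF4 in mouse endothelium, and the cerebral cavernous malformation proteins with HEG1 hold this route back. Of 12 listed genes 10 were matched, without MAPK7, the gene of ERK5 itself, and the flow sensor PIEZO1. Of the matched genes 9 were tested, 0 rose and 0 fell. With 9 genes, 0 calls lie near the 9.34% of all genes that passed. The median log2 fold change of the 9 was -0.21, beside -0.18 for all genes. Those with the smallest adjusted p were HEG1 (-0.54), MEF2A (-0.25), PDCD10 (-0.26) and MEF2D (-0.33), with adjusted p-values of 0.174 to 0.310.

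Genes that KLF2 and KLF4 are known to raise or lower in human and mouse endothelium moved in both directions. Of 24 listed genes 16 were matched and 15 tested. Among those 15, 2 rose and 2 fell, beside 1.93% and 7.41% of all genes, and 11 did not pass. The median of the 15 log2 fold changes was -0.04, against -0.18 for all genes. Since the list joins genes that these factors raise with genes that they lower, its median does not measure their activity. The genes that rose were THBS1, the antiangiogenic matrix protein thrombospondin, and ANGPT2, a ligand of the receptor TIE2. THBS1 was at 114.5 ± 21.8 FPKM with PAPA-NONOate and 48.8 ± 11.7 FPKM in controls (SD, n = 5 each), a log2 fold change of 1.24. ANGPT2 was at 103.3 ± 17.3 FPKM with PAPA-NONOate and 52.8 ± 14.4 FPKM in controls (SD, n = 5 each), a log2 fold change of 0.99. The genes that fell were NOS3, the endothelial nitric oxide synthase that KLF2 induces, at 8.04 ± 3.47 FPKM with PAPA-NONOate and 16.0 ± 4.64 FPKM in controls (SD, n = 5 each), and TEK, which encodes TIE2, at 1.04 ± 0.430 FPKM with PAPA-NONOate and 2.29 ± 0.543 FPKM in controls. On the log2 scale NOS3 differed by -1.0 (adjusted p = 0.0346) and TEK by -0.89 (adjusted p = 0.0404 in limma). The call of NOS3 was lost in 9 of 22 other settings (adjusted p up to 0.0809) and that of TEK in 13 of 21 (adjusted p up to 0.0889). Leaving out treated replicate 3 or 8, or any of the controls 2, 4, 5 and 8, ended the call of NOS3. Leaving out treated replicate 2, 3 or 8, or any of the same controls, ended that of TEK, as did the replicate block (adjusted p = 0.0538).

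Beside KLF2 and its endothelial targets, 9 of 12 endothelial markers were matched and tested. Of these 0 rose and 1 fell (TEK), beside 1.93% and 7.41% of all genes. The markers had a median log2 fold change of -0.32, against -0.18 for all genes. Their summed level was 506.0 to 845.4 FPKM with PAPA-NONOate and 623.1 to 895.9 FPKM in controls. In these bulk samples fewer cells of a type and less RNA per cell cannot be told apart, and the part of endothelial RNA in the values of KLF2 and NOS3 was not tested.

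Genes of KLF cofactors and of KLF turnover did not pass as deposited either. Of 15 matched 14 were tested, 0 rose and 0 fell, where 9.34% of all genes passed. The median log2 fold change of the 14 was -0.15, beside -0.18 for all genes. SIN3A, the corepressor of KLF10 and KLF11, differed by -0.52 on the log2 scale (adjusted p = 0.0983) and passed only with library weights or when treated replicate 5 was left out. The acetyltransferase gene KAT2B differed by -0.41, and WWP1, a ubiquitin ligase, by -0.30. CTBP1, the corepressor of KLF3, KLF8 and KLF12, was at 251.7 ± 71.5 FPKM with PAPA-NONOate and 194.2 ± 23.1 FPKM in controls (SD, n = 5 each), a log2 difference of 0.34 (adjusted p = 0.216). CTBP1 passed after median-ratio scaling (0.53, adjusted p = 0.0466) and not after quantile normalization.

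In the TGF-beta route around KLF10 and KLF11, 14 genes were tested, of which 0 rose, 2 fell and 12 did not pass. Over all genes, 1.93% rose and 7.41% fell. The median log2 fold change was -0.32 in the route and -0.18 over all genes. BAMBI, a decoy receptor for TGF-beta ligands, was at 26.1 ± 10.02 FPKM with PAPA-NONOate and 60.4 ± 19.0 FPKM in controls (SD, n = 5 each), which is -1.22 on the log2 scale (adjusted p = 0.0156 in limma). LTBP1, which stores latent TGF-beta in the matrix, differed by -0.79 (log2) and lost its call in 9 of 22 other settings (adjusted p up to 0.0821), among them median-ratio scaling and the fits without treated replicate 3 or 4 or without control 2, 5 or 8. SMAD6, an inhibitor of BMP signals, differed by 0.67 (log2, adjusted p = 0.0540) without passing, and passed in 7 of 22 other settings, among them without PAPA-NONOate replicate 2 (0.85). TGFB1, the ligand, was at 46.5 ± 6.07 FPKM with PAPA-NONOate and 62.3 ± 11.3 FPKM in controls (SD, n = 5 each). Its groups did not overlap, and 7.48% of all genes tested lay lower without overlap. The log2 difference of TGFB1, -0.41, did not pass (adjusted p = 0.0930), except after quantile normalization.

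Of 12 glucocorticoid-responsive genes tested beside KLF9 and KLF15, 1 rose, 0 fell and 11 did not pass. By comparison 1.93% of all genes rose and 7.41% fell. This list had a median log2 fold change of -0.12, against -0.18 for all genes. The gene that rose was ERRFI1, a feedback inhibitor of the EGF receptor, whose log2 difference was 0.60 (SE 0.12, adjusted p = 0.00699 in limma). FKBP5, a chaperone of the glucocorticoid receptor, was at 63.2 ± 16.6 FPKM with PAPA-NONOate and 88.2 ± 17.2 FPKM in controls (SD, n = 5 each), a log2 difference of -0.50 (adjusted p = 0.133). CRISPLD2 (0.47) and TSC22D1 (-0.49) did not pass, although CRISPLD2 passed after median-ratio scaling (0.63).

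Some markers of other cells moved in the comparison in which KLF6 rose and KLF8 fell. The counts below stand beside 1.93% of all genes tested that rose and 7.41% that fell. Of 11 macrophage and myeloid markers tested 0 rose and 5 fell, and their summed level was 149.9 to 398.0 FPKM with PAPA-NONOate and 449.5 to 805.0 FPKM in controls. Of 9 fibroblast markers 0 rose and 3 fell, with sums of 428.3 to 1219 FPKM with PAPA-NONOate and 1115 to 2054 FPKM in controls. Of 4 lymphocyte markers tested 0 rose and 3 fell, with sums over all 10 of 12.3 to 20.8 FPKM with PAPA-NONOate and 20.01 to 36.04 FPKM in controls. Their part in the changes of the KLF genes was not tested. Melanocyte markers spread widely, from 71.7 to 215.9 FPKM in sum with PAPA-NONOate and 69.0 to 520.2 FPKM in controls, and 0 of 8 tested passed. Of 6 red cell and thrombocyte markers tested 0 rose and 1 fell (ITGA2B, a thrombocyte integrin, adjusted p = 0.0428 in limma), while the other 5 had log2 fold changes above 0. The markers of this list summed to 1194 to 2189 FPKM with PAPA-NONOate and 524.1 to 2794 FPKM in controls. Photoreceptor and retinal markers were near 0 (sums of 0.618 to 1.69 FPKM with PAPA-NONOate and 0.359 to 1.24 FPKM in controls), with PDE6C and ARR3 at 0 in every library. Keratin-expressing epithelium markers were also near 0, at 0.575 to 1.29 FPKM with PAPA-NONOate and 0.911 to 1.22 FPKM in controls, with KRT5 at 0. Of 2 retinal pigment epithelium markers tested 0 rose and 1 fell, LRAT, an enzyme of the retinoid cycle, at 0.760 FPKM with PAPA-NONOate and 1.98 FPKM in controls on average (adjusted p = 0.0224 in limma). The treated mean of LRAT lay under the 1 FPKM of the filter and its control mean above it. It may have met the filter only through the controls, which would favour a lower call. RPE65 averaged 0.101 FPKM with PAPA-NONOate and 0.0984 FPKM in controls and RGR was at 0, and the list's sum of 11.1 to 15.1 FPKM with PAPA-NONOate and 14.0 to 20.4 FPKM in controls came mostly from MERTK.

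The genes most like the KLF members over the 10 libraries were found by the root mean square difference between profiles, on the log2(FPKM + 0.5) scale with each gene's mean removed. For KLF6 these were DTX3L, a ubiquitin ligase of the DNA damage and interferon response (difference 0.10), ERRFI1 (0.11) and IFRD1, a transcriptional coregulator (0.11), against a root mean square of 0.37 of KLF6 about its own mean. Since likeness was measured over treated and control libraries together, a difference in the direction of KLF6 was fixed by the choice, and the values are a description. The log2 fold change of DTX3L was 0.63 and that of IFRD1 was 0.71. IFRD1 was at 200.2 ± 26.7 FPKM with PAPA-NONOate and 121.7 ± 15.0 FPKM in controls (SD, n = 5 each). For KLF10 they were MYC (0.09), ARID5A (0.10) and LRRC41 (0.10), with log2 fold changes of 0.30, 0.34 and 0.27. For KLF7 they were SLC19A2, XRN1 and CDC14B (0.21, 0.21 and 0.22), with log2 fold changes of -0.52, -0.39 and -0.57. The directions for KLF10 and KLF7 were likewise fixed by the choice. SLC19A2 was low, at 0.688 to 1.07 FPKM with PAPA-NONOate and 1.26 to 1.74 FPKM in controls, and met the filter through the controls.

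**Figure D4:**
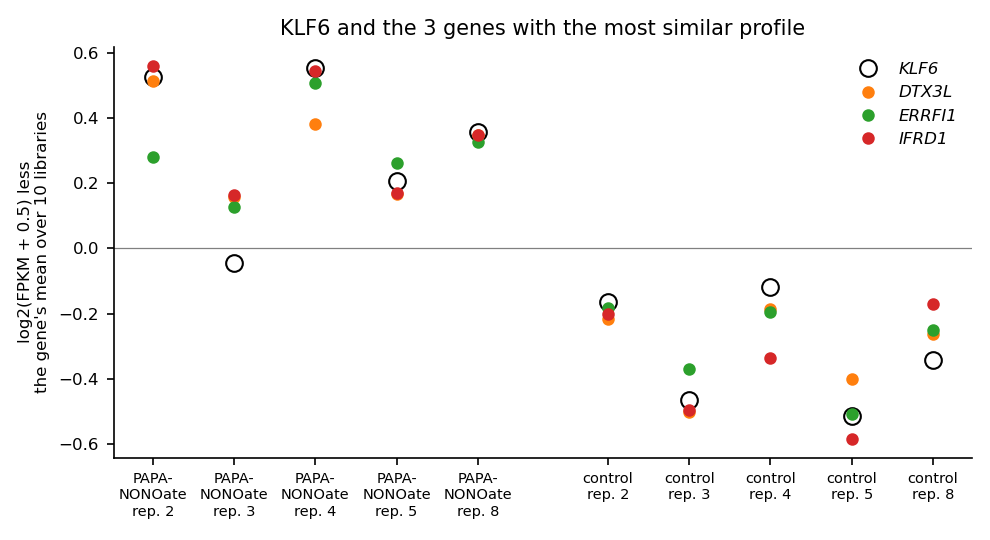
Log2(FPKM + 0.5) less each gene's mean over the 10 libraries (vertical axis) for KLF6 (open circles) and DTX3L, ERRFI1 and IFRD1 (filled), by library, with PAPA-NONOate on the left and controls on the right. The 4 genes lie below their means in every control and, with the exception of KLF6 in treated replicate 3, above them in every treated library.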

How the data were processed

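The deposited values are FPKM, 1 column per library. Cufflinks and SAMtools were used with the build GRCg6a, per the submitters' processing notes, while their versions, the aligner, the annotation release and the treatment of fragments shared by near-identical genes were not given in the sources used here. In all 14 values of 999999999, in 10 genes, were treated as missing and those genes were not tested.

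Groups were taken from the titles. Genes with at least 1 FPKM in at least 5 of 10 libraries were tested with limma 3.58.1 (R 4.3.3, with a trend and 8 residual degrees of freedom) on log2(FPKM + 0.5), with Benjamini-Hochberg adjustment over 11357 genes. The procedure was tested on simulated data. Of several rows with 1 name the highest mean was kept. The members, lists and tests were chosen with earlier results of these data known. Named genes were all KLF and SP genes, up to 4 tested genes per other list with the smallest adjusted p, and the 3 most alike genes for the 3 members with the smallest adjusted p. CDH5, PECAM1, CNN1, RPE65, LRAT, ITGA2B, MERTK and the markers at 0 were named after their values were seen. Alternatives changed the pseudocount (0.1, 1), the filter (none, 5 FPKM), the scaling (median-ratio, quantile), the trend, library weights, the replicate block and the libraries included. Within groups, libraries correlated at 0.930 to 0.978, and none was treated as a duplicate. The lowest values, 0.930 to 0.959, were those of PAPA-NONOate replicate 2 with the other treated libraries. All other pairs within a group correlated at 0.962 or more. Promoter motifs were not analysed here. Figures were drawn with matplotlib 3.10.9.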

Additional observations from a re-analysis of the deposited data

Results flagged for a closer look

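In groups of 5, the gap between an extreme library and its nearest neighbour was compared with the whole range, with 0.71 as the limit, which chance passes in about 1 of 20 groups. Of 94 such sets of values 5 passed it, which is about what chance gives. KLF2 was 119.8 FPKM in PAPA-NONOate replicate 4, with a gap of 0.768 of the range above the other treated libraries. KLF9 was 3.32 FPKM in control replicate 4, with a gap of 0.857 of the range. PECAM1, an endothelial gene, was 114.0 FPKM in control replicate 4, with a gap of 0.89. SIN3A was 41.4 FPKM in control replicate 2, with a gap of 0.873. TGFB1 was lowest in PAPA-NONOate replicate 2, at 35.8 FPKM, with a gap of 0.832.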

How the results depend on the processing

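KLF6 and KLF8 kept their calls in all 22 other settings. Of the 9 members, 2 passed with median-ratio scaling, quantile normalization and the replicate block with median-ratio scaling (KLF6 and KLF10), and 2 with library weights (KLF6 and KLF7). These 2 are 22.2% of the members, where 13.5% of all genes passed with median-ratio scaling and 12.4% with quantile normalization. Over all genes, 605 of 8094 passed with a filter at 5 FPKM. Of 11357 genes, 1856 passed with the block and scaling and 1807 with library weights, against 1061 as deposited. Leaving out 1 library gave 1 to 2 of the 9 members and 604 to 1813 of 11357 genes. The gene count was lowest without control replicate 2 and highest without PAPA-NONOate replicate 5. Median-ratio scaling without PAPA-NONOate replicate 2 or 5, added after seeing the data, gave 2 of 9 members each. Of 11357 genes, 1267 passed without replicate 2 and 1806 without replicate 5. The higher and lower calls were 219 and 842 as deposited, 798 and 731 with median-ratio scaling, and 733 and 680 with quantile normalization. The cause of these differences was not tested.

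Some log2 fold changes near 0 changed sign. Median-ratio scaling, with or without the replicate block, gave KLF3 0.10, KLF11 0.12, KLF13 0.0229 and SP2 0.18. Quantile normalization gave KLF3 0.0684, KLF11 0.0443, KLF15 0.0228, KLF13 0.0142 and SP2 0.17. Median-ratio scaling without PAPA-NONOate replicate 2 gave KLF3 0.13, KLF11 0.0747, SP1 0.0124 and SP2 0.18, and without replicate 5 it gave KLF3 0.0821, KLF11 0.23, KLF15 0.13, KLF13 0.0308, SP2 0.14 and PDCD10 0.0068. Leaving out 1 library gave ranges of -0.15 to 0.022 for KLF3, -0.15 to 0.0054 for KLF11, -0.0918 to 0.0742 for SP2 and -0.10 to 0.16 for PECAM1.

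The replicate block alone gave 893 genes and 1 member. With median-ratio scaling 1529 genes passed without the block and 1856 with it. Deviations of same-numbered libraries correlated at 0.0035, 0.288, 0.303, -0.0229 and 0.186 for replicates 2, 3, 4, 5 and 8. Treated replicates 3, 4 and 8 correlated best with the control of their own number. Treated replicate 2 correlated best with control 3 (0.142), and treated replicate 5 with control 2 (0.34). A shared source of same-numbered libraries is therefore not shown, and not shown to be absent, and the labels give only the shared number. KLF7 and KLF9 were not tested with the filter at 5 FPKM. Absolute depth is unknown, which limits what can be said of KLF9 and other low genes.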
